A study of Mus musculus with 24 samples.

Results

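The miRNAs mmu-miR-205-5p, mmu-miR-203-3p and mmu-miR-31-5p were chosen by name from the miRNAs of an array, as miRNAs known from stratified epithelium, and were followed in 8 tissues. They are 3 of the 1881 mouse miRNAs on the array, and all 3 were detected on at least 3 of the 24 arrays. The arrays came from C57BL/6J mice, which were male per the study's methods, and each array was 1 tissue of 1 lens group. The normal group (titled control) received no treatment, the lens-induced group wore a −30 D lens on the right eye from 3 weeks of age for 3 weeks, and a further group is labeled 0D, taken here as a lens of 0 D whose age and duration are not stated. The tissues were cornea, iris, lens, retina, RPE/choroid (labeled choroid), sclera and the brain regions labeled SCN and LGN. For the ocular tissues of the normal and −30 D groups, equal amounts of RNA from 3 mice were mixed, so that each array is 1 pool and holds no spread between animals. Pooling was not stated for the 0 D group or the brain regions. Each of the 3 slides held the 8 tissues of 1 lens group, so that tissues were compared within a slide, while an effect of the lens and one of the slide cannot be told apart.

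A miRNA is a short RNA that binds target mRNAs mainly through its seed, bases 2 to 8 from its 5′ end, and lowers their translation or stability. Stratified epithelia, such as the epidermis and the corneal epithelium, are layered sheets renewed from basal cells. In such epithelia miR-205 is abundant and, with the miR-200 family, represses the transcription factors Zeb1 and Zeb2, which drive loss of epithelial character; in corneal keratinocytes it also targets the lipid phosphatase SHIP2. The miR-203 of the epidermis accumulates in cells that leave the basal layer and represses p63, the transcription factor of basal cells. The miR-31 of the corneal epithelium targets the hypoxia regulator FIH-1, and it is also expressed in other cell types.

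The mature sequences of the 3 miRNAs are shown because they carry unrelated seeds, given here in capitals. By seed they are 3 separate miRNAs and not 1 family.

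miR-205-5p: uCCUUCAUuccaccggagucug
miR-203-3p: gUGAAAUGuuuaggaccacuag
miR-31-5p: aGGCAAGAugcuggcauagcug

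The sequences and positions are from RefSeq, build GRCm38.p6. Among the 1679 mature miRNA names in that table, no other mature miRNA had the seed of any of the 3. Mir205 lies on the minus strand at chr1:193507463-193507530, within the long noncoding RNA gene Mir205hg (chr1:193506460-193510210). Mir203 lies on the plus strand at chr12:112130880-112130955, and the miRNA gene Gm51289, which gives the arms named miR-203b, lies within it on the opposite strand at chr12:112130887-112130946. The span of Mir31, on the minus strand at chr4:88910557-88910662, lies inside that of the long noncoding RNA gene Gm49890 (chr4:88909854-88942042). Exon and intron boundaries of these genes were not analysed here.

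A probe counted where its signal exceeded 3 of its errors, a miRNA was detected where at least 1 of its probes counted, and its signal was the sum over those probes. Signals are given after scaling the arrays to each other, in array units, and ± is the error within the array, propagated for ratios, unless an SD is named. The arrays detected 129 to 249 miRNAs each. The cornea and lens arrays detected 129 to 172 and had to be scaled up 1.61- to 3.15-fold, whereas the other 6 tissues detected 213 to 249 and had factors of 0.496 to 1.28. Every array received 100 ng of total RNA, so unscaled signals are given too where the scaling moves a result. In these mixed tissues, fewer cells that make a miRNA and less of it per cell cannot be told apart.

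**Figure D1:**
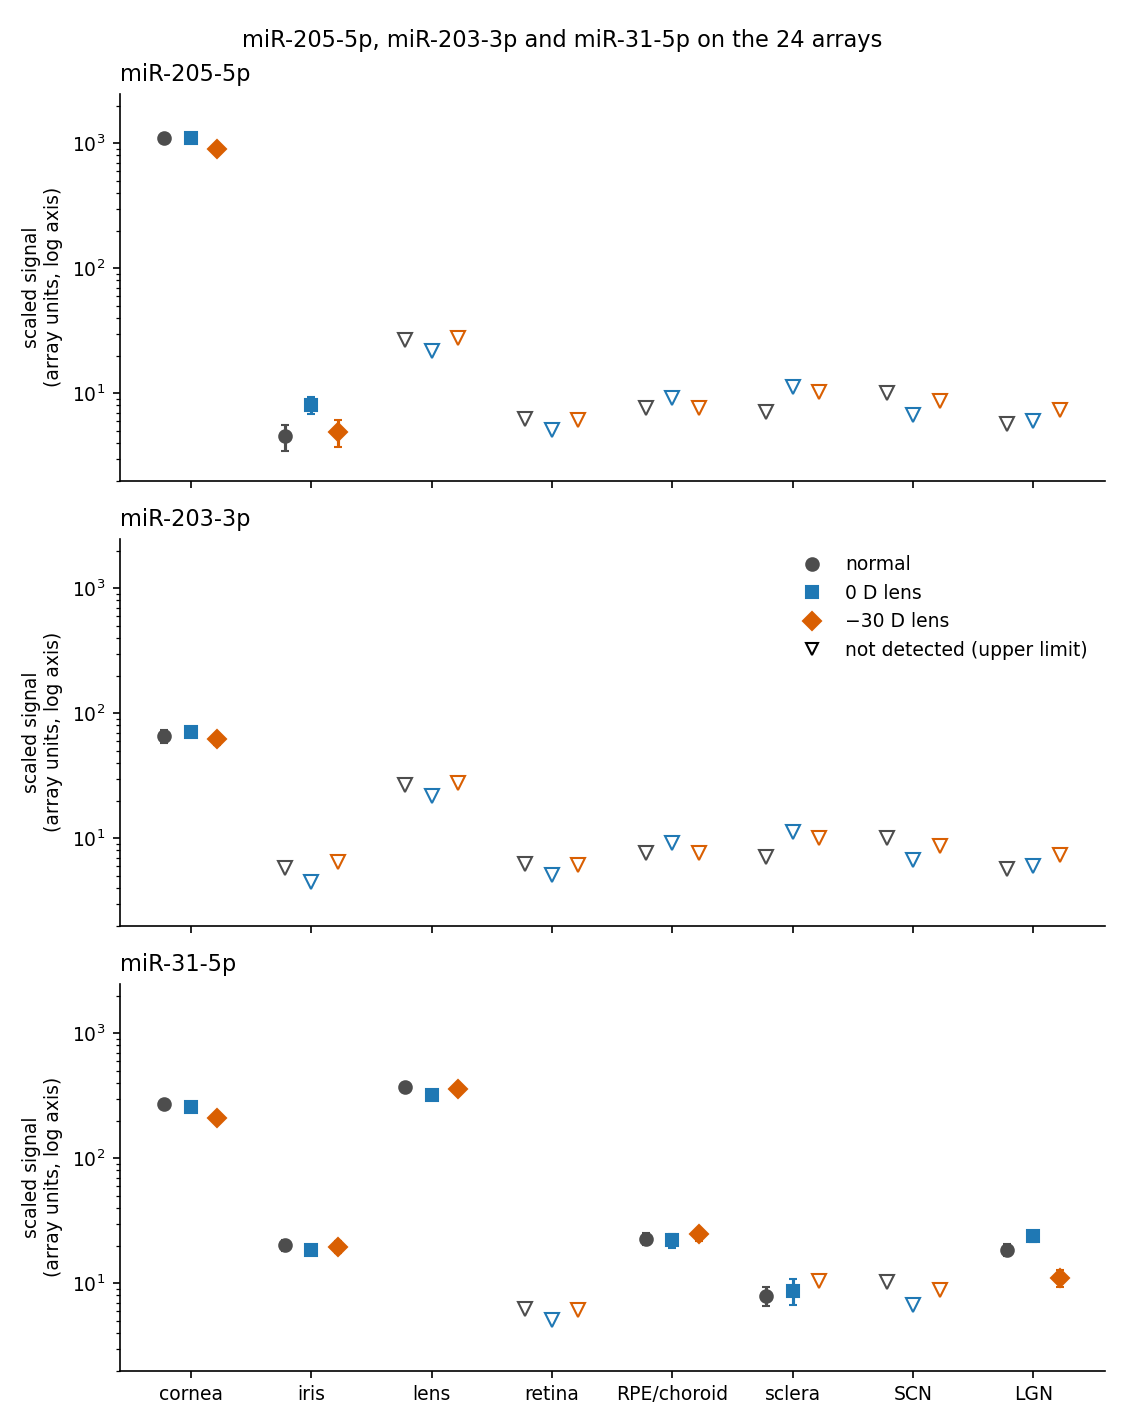
Scaled signal (log axis, array units) of each miRNA on the 24 arrays by tissue, with the 3 lens groups as separate symbols and bars of 1 error within the array; open triangles are upper limits on arrays without detection. miR-205-5p and miR-203-3p stand out in cornea, and miR-31-5p in cornea and lens, where its lens signals of 320.7 to 369.6 lie above the cornea signals of 211.3 to 272.9.

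The signal of miR-205-5p was bright in cornea and faint in iris, and it was not detected in the other 6 tissues. In cornea the normal array gave 1098 ± 81.9, the 0 D array 1108 ± 82.9 and the −30 D array 895.3 ± 66.7, with a mean of 1034 ± 120.1 (SD, n = 3). In iris it was 4.53, 8.06 and 4.92 in the same order. All 3 cornea arrays lay far above all 3 iris arrays, and the iris arrays lay below the common floor of 9.93 to which low values were raised for the test. The cornea mean was 182-fold higher than the iris mean (geometric means), or 65.6-fold on unscaled signals. On arrays without detection only a bound can be given, set by the array's lowest detected signal or by the miRNA's own probes at 3 errors, whichever is higher. Against lens, cornea was at least 40.8-fold higher, and against retina, RPE/choroid, sclera, SCN and LGN it was at least 178-, 127-, 111-, 123- and 164-fold higher. Without scaling, these 6 bounds lay between 53.4 and 69.2.

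The faint iris signal of miR-205-5p rested largely on 1 of its 2 probes. The unscaled signal of the brighter probe was 6.58 ± 1.53 for normal, 11.4 ± 1.86 for 0 D and 6.61 ± 1.59 for −30 D iris. The other probe counted in 0 D iris alone, at 3.15 errors, and lay at 1.64 errors in normal and 2.20 errors in −30 D iris. Part of the higher 0 D value thus comes from counting a further probe.

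Detection of miR-203-3p was limited to the 3 cornea arrays, with none on the other 21. In cornea it was much dimmer than miR-205-5p. An iris share as small as that of miR-205-5p would lie below detection, so whether its pattern is narrower cannot be told. The cornea signals were 65.3 ± 7.63 (normal), 71.1 ± 7.07 (0 D) and 62.1 ± 6.05 (−30 D), with a mean of 66.2 ± 4.55 (SD, n = 3). It therefore passed the filter on low values through the cornea arrays alone, and a difference in favor of cornea follows from that. Cornea was at least 12.1-fold higher than iris, 11.4-fold than retina, 8.12-fold than RPE/choroid, 7.11-fold than sclera, 7.88-fold than SCN and 10.5-fold than LGN. Against lens the bound was no more than 2.61-fold, because the lens arrays needed the largest scale factors and a probe at 3 errors there stands for a high scaled signal. Without scaling, the 7 bounds ran from 3.42 to 4.43, and a level of miR-203-3p below these limits was not detectable in the other tissues.

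The distribution of miR-31-5p was wider. In the order normal, 0 D and −30 D, its signal was 369.6, 320.7 and 357.8 in lens, and 272.9, 256.4 and 211.3 in cornea. RPE/choroid followed with 22.6, 22.1 and 24.6, and iris with 20.2, 18.6 and 19.7. LGN gave 18.5, 23.8 and 11.0. Lens and cornea formed a high level, and no array of another tissue came near it. Sclera gave 7.95 (normal) and 8.76 (0 D) with no detection on the −30 D array, and in retina and SCN it was detected on none of the arrays. Cornea was 12.6-fold higher than iris, 10.6-fold higher than RPE/choroid and 14.5-fold higher than LGN, and at least 42.3-, 27.4- and 29.1-fold higher than retina, sclera and SCN. Unscaled, these values were 4.54-, 4.48- and 5.69-fold, and at least 14.8-, 17.1- and 15.8-fold.

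**Figure D2:**
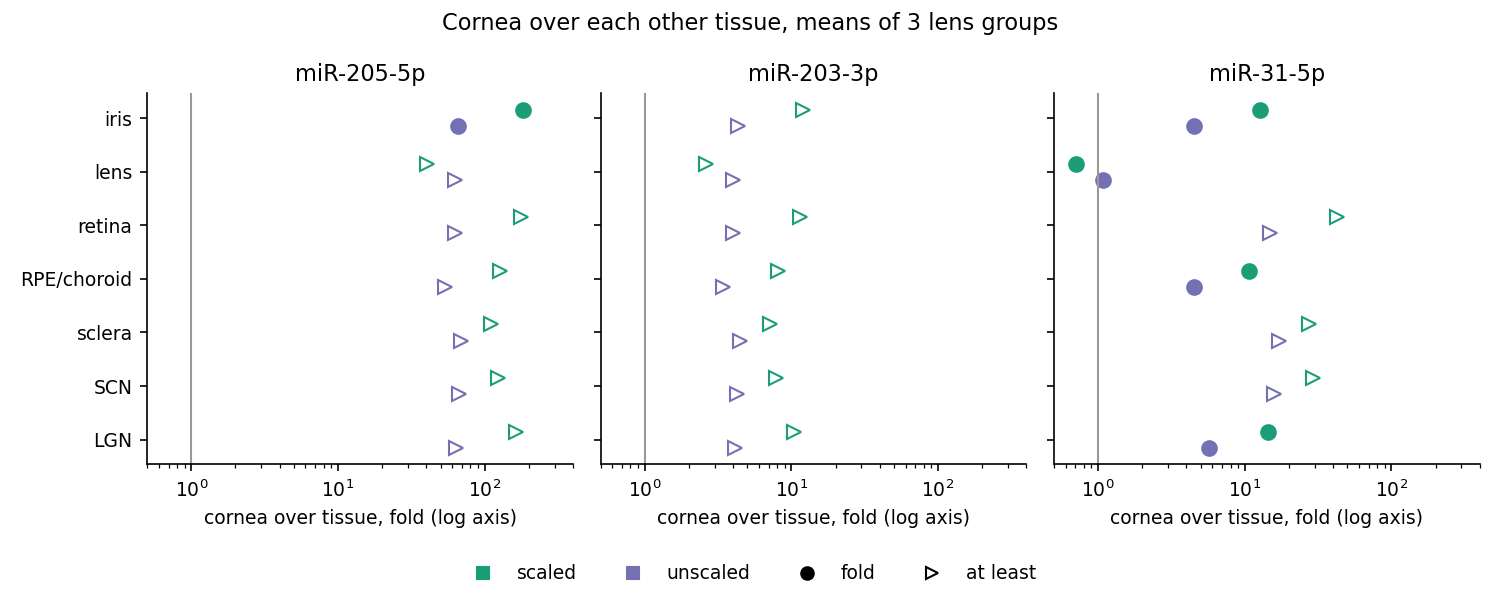
Cornea signal over that of each other tissue (fold, log axis), as the ratio of geometric means over the 3 lens groups, with scaled and unscaled signals in separate colors; filled circles are folds and open triangles are lower bounds for tissues without detection on all 3 arrays. For miR-31-5p the ratio of cornea to lens falls on either side of 1, at 0.704 scaled and 1.08 unscaled.

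The differences were tested with limma on log2 of the scaled signal, with terms for tissue and lens group on all 24 arrays and Benjamini-Hochberg adjustment over 306 miRNAs. Of these, 60 (19.6%) were called higher and 118 (38.6%) lower in cornea than in the mean of the other 5 ocular tissues. All 3 members were among those called higher. For miR-205-5p and miR-203-3p the call was fixed, since only their 3 cornea arrays lay above the floor. With no scaling, 28 miRNAs were called higher and 178 lower, and with each array scaled by its own detected miRNAs, 23 and 186. The median difference over all miRNAs moved from −0.08 to −0.34 and −0.40, while those of the members stayed between 2.53 and 6.62. Quantile normalization gave 71 higher and 135 lower, with a median over all miRNAs of −0.11. miR-205-5p had the highest difference of all 306, at 6.69 log2 units. The difference of miR-31-5p was 3.16 (SE 0.13, adjusted p = 2.7e-12 in limma) and ranked 8 of 306. Retina and sclera, which are in that mean, sat at the floor for miR-31-5p on all 6 of their arrays. Its difference is thus in part a distance to the floor, and those arrays add no spread to its SE. The fitted difference of miR-203-3p was 2.73. All 3 cornea arrays were above all arrays of the other ocular tissues for miR-205-5p and miR-203-3p. For miR-31-5p they were above those of 4 of the 5 tissues and below lens. For miR-205-5p and miR-203-3p, 21 of the 24 arrays sit at the floor and have no spread, so that no SE or p is given for them and their fitted intervals are too narrow. For both, the fitted difference is a distance to the floor and not a fold between tissues.

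Tissue by tissue, limma called 69 of the 306 miRNAs (22.5%) higher in cornea than in iris, 78 (25.5%) than in lens, 73 (23.9%) than in retina, 53 (17.3%) than in RPE/choroid, 44 (14.4%) than in sclera, 79 (25.8%) than in SCN and 87 (28.4%) than in LGN. miR-205-5p and miR-203-3p were in each of these 7 sets, which follows from their being above the floor in cornea alone. miR-31-5p was in 6 of them, with differences of 3.66 against iris, 3.41 against RPE/choroid and 3.86 against LGN (SE 0.17 each), and it was at the floor on every array of retina, sclera and SCN.

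Against lens, miR-31-5p was called lower in cornea, as were 71 of the 306 miRNAs (23.2%). The difference was −0.51 log2 units (SE 0.17, 95% interval −0.87 to −0.14, adjusted p = 0.021), and lens was higher on each of the 3 slides. Without the arrays of the normal group the call was lost (−0.54, adjusted p = 0.15 in limma). Without scaling it was 0.12 in the other direction with an adjusted p of 1.0 in limma. The unscaled signals were 138.5, 149.5 and 131.1 in cornea and 141.0, 133.3 and 113.6 in lens, and the groups overlapped. The order of cornea and lens for miR-31-5p depends on whether the arrays are set equal in their total RNA or in the brightness of their shared miRNAs.

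Between neighbors lower in the order of miR-31-5p, cornea exceeded RPE/choroid by 3.41 log2 units (95% interval 3.05 to 3.78). RPE/choroid and iris were 0.25 apart (95% interval −0.12 to 0.61), and iris and LGN 0.20 apart (95% interval −0.16 to 0.57). Neither neighboring pair was separated beyond the fitted interval, while RPE/choroid exceeded LGN by 0.45 in the fit (95% interval 0.08 to 0.81). These intervals use 1 spread shared by all tissues, with 9 of the 24 arrays at the floor, whereas LGN alone had a log2 SD of 0.57. On the 0 D slide LGN was the higher, at 23.8 against 22.1, so RPE/choroid and LGN are not clearly separated. LGN lay 0.77 (0.40 to 1.13) above the floor at which retina, sclera and SCN sat.

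The other arms of the same hairpins were dimmer or not detected. miR-205-3p and miR-203-5p were detected on none of the 24 arrays, and the miR-203b arms are not on the array. miR-31-3p was detected on all cornea and lens arrays and on 2 others, iris and LGN of the 0 D group. The hairpin of Mir31 is shown with both mature arms in capitals, miR-31-5p first, since they are cut from the same precursor.

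Mir31: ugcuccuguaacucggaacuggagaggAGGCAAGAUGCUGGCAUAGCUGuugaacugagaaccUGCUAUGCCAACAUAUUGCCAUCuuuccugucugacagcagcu

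The 2 arms of miR-31 did not divide between cornea and lens in the same way, an observation made after the values were seen. The signal of miR-31-3p was 58.1, 58.7 and 45.4 in cornea (normal, 0 D and −30 D) and 26.1, 42.1 and 26.5 in lens. After scaling, cornea was thus the higher of the pair on every slide for miR-31-3p and the lower for miR-31-5p. Without scaling, the ratio of cornea to lens for miR-31-5p was 0.982, 1.12 and 1.15 in the same order of groups. The opposite directions of the 2 arms therefore depend on the scaling, and the gap between them does not. Scaling acts on both arms of an array alike, so that the ratio of the ratios does not depend on it. The log2 ratio of cornea to lens was higher for miR-31-3p than for miR-31-5p by 1.59 ± 0.38 in the normal group, 0.80 ± 0.31 in the 0 D group and 1.53 ± 0.37 in the −30 D group. The dimmer probe of miR-31-3p did not count in lens on the normal and −30 D slides, at 2.67 and 2.74 errors, and this widened the gap there. With the brightest probe of each arm alone, the gap was 1.01, 0.78 and 0.92 log2 units, a 1.72- to 2.01-fold difference. The other pair of arms detected on all 6 arrays, miR-204-5p and miR-204-3p, differed by 0.20 ± 0.14 (SD, n = 3). With 1 pair to compare against, nothing particular to miR-31 can be read from this.

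**Figure D3:**
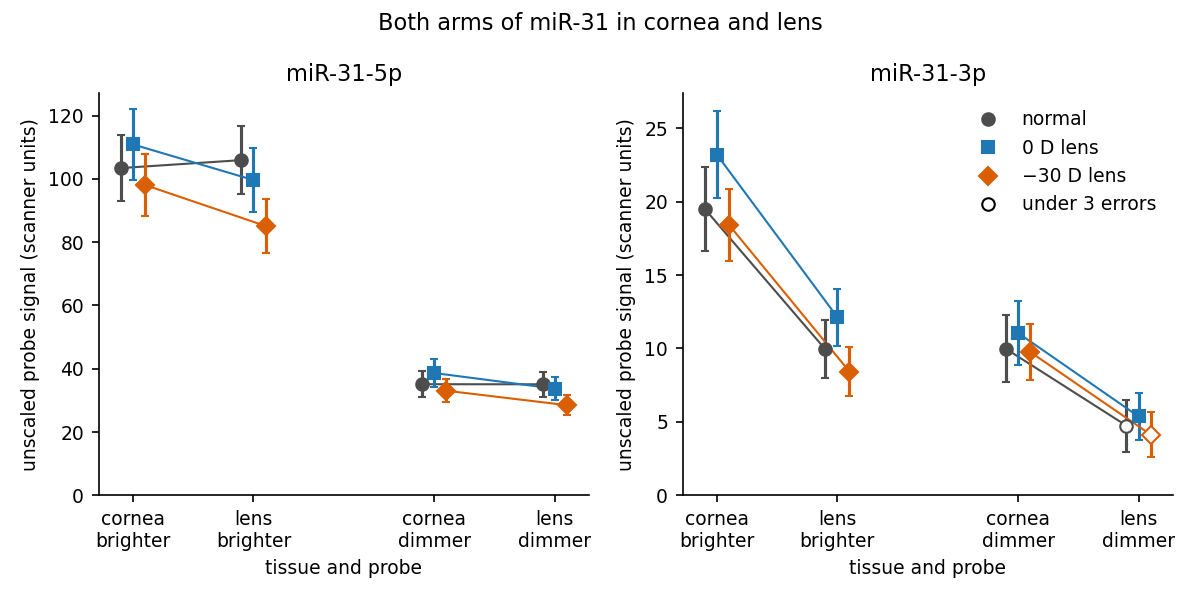
Unscaled probe signals (scanner units, linear axes from 0) of miR-31-5p and miR-31-3p in cornea and lens, for the brighter and the dimmer probe of each arm; lines join arrays of 1 slide, bars are 1 probe error and open symbols are probes under 3 errors. The brighter miR-31-3p probe is 1.91- to 2.18-fold higher in cornea than in lens on the 3 slides, and that of miR-31-5p 0.976- to 1.15-fold.

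The miRNAs with the most similar pattern were members of the miR-200 family, which is typical of epithelia. Over the 18 ocular arrays and 308 miRNAs detected on at least 3 of them, the log2 level of miR-205-5p correlated most with miR-141-3p, miR-200a-3p and miR-200c-3p and so did that of miR-203-3p, the lowest of these Pearson r being 0.998 for each. These values have little content beyond presence in cornea, since 15 of the 18 arrays sit at the floor for the members. The family is shown by seed, in capitals, first the miRNAs with AACACUG and then those with AAUACUG, neither of which occurs in the 3 members.

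miR-141-3p: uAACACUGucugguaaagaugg
miR-200a-3p: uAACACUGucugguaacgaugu
miR-200b-3p: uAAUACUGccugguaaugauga
miR-200c-3p: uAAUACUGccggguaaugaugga
miR-429-3p: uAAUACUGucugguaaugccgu

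All 5 members of the family were detected on every cornea and every iris array and on no array of the other 6 tissues, the same detection as that of miR-205-5p. Their summed signal was 1620 to 1780 in cornea and 41.3 to 58.3 in iris. The share of the cornea level found in iris was not the same for each miRNA. It was 0.413% to 0.728% on the 3 slides for miR-205-5p, 1.63% to 2.69% for miR-200c-3p, 1.86% to 2.57% for miR-141-3p, 2.20% to 3.01% for miR-200b-3p, 2.49% to 3.73% for miR-200a-3p and 4.08% to 7.17% for miR-429-3p. The range of miR-205-5p lay below that of each of the 5 others. Whether cornea tissue carried into the iris samples has a part in these signals was not tested. All 5 were called higher in cornea than in the mean of the other ocular tissues, with a median difference of 4.71 log2 units beside −0.08 over all 306 miRNAs. These calls follow from their lack of detection outside cornea and iris, and the differences are largely distances to the floor. miR-200a-3p and miR-141-3p were above the floor on the 3 cornea arrays alone.

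The likeness of miR-31-5p was to other miRNAs. Its log2 level over the 18 ocular arrays correlated most with miR-184-3p (r = 0.950), miR-20a-5p (r = 0.943) and its own other arm miR-31-3p (r = 0.919), and its correlation was 0.562 both with miR-205-5p and with miR-203-3p. The points share tissues, arrays and scale factors, so these values are a description. miR-184-3p, a miRNA well known from corneal epithelium and lens, had signals of 36854, 29710 and 34076 in cornea, 16120, 11130 and 16390 in lens, and 505.3 to 549.6 in iris. It shared with miR-31-5p the high levels in cornea and lens, but its cornea signals were above those of lens on all 3 slides. miR-20a-5p, a member of the miR-17 family, was 186.2 to 206.9 in cornea and 435.7 to 532.5 in lens.

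Other miRNAs studied in epidermis or corneal epithelium were called in both directions. Of the 11 in that list, miR-450b-5p was detected on no array, 4 were called higher in cornea than in the mean of the other ocular tissues, 4 lower, and 2 were not called, beside 19.6% higher and 38.6% lower over all 306 miRNAs. The 4 higher ones were miR-184-3p (6.51 log2 units), miR-21a-5p (2.47), miR-210-3p (1.41) and miR-24-3p (0.35). The direction of miR-24-3p depends on the scaling. Its unscaled means were 287 in cornea, 271 in retina and 53.7 in lens, but 1133 in iris, 1000 in RPE/choroid and 705 in sclera. Cornea then lay below the mean of the other ocular tissues. The 4 lower ones were miR-34a-5p (−0.74), miR-103-3p (−0.73), miR-125b-5p (−0.62) and miR-107-3p (−0.54). The median of the 10 tested was −0.19. miR-34c-5p, at −0.27 with an adjusted p of 0.35 in limma, and miR-22-3p, at −0.10 with an adjusted p of 0.32, did not pass. miR-34c-5p was detected on no cornea array and on all 3 lens arrays (25.0 to 26.0), with 15 of the 18 ocular arrays at the floor. Unscaled, miR-22-3p averaged 286 in cornea and 124 in lens, but 492 in retina, 887 in sclera, 952 in RPE/choroid and 1075 in iris.

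**Figure D4:**
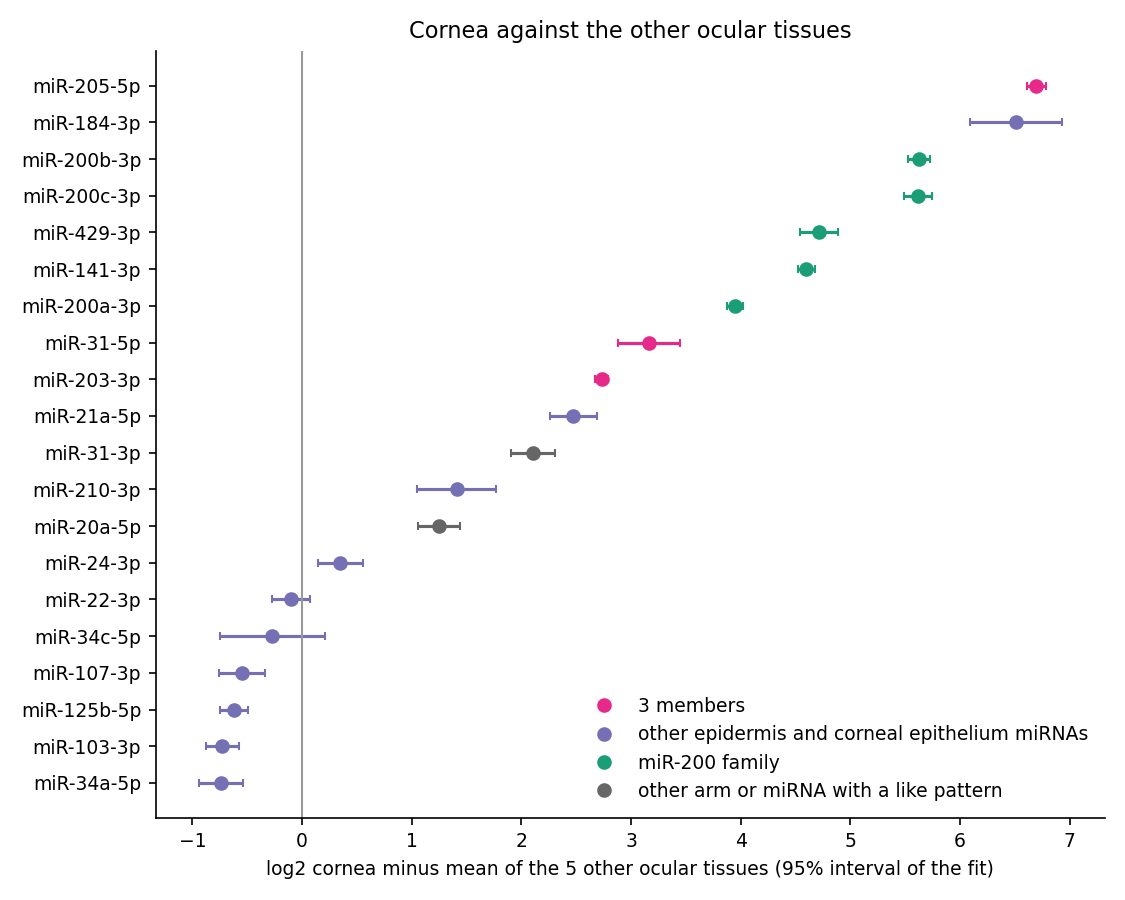
Fitted log2 difference between cornea and the mean of iris, lens, retina, RPE/choroid and sclera, with the 95% interval of the limma fit, for the 3 members, their detected other arm, the miR-200 family, the other epidermis and corneal epithelium miRNAs and miR-20a-5p. The members sit at 6.69, 3.16 and 2.73 with all 5 of the miR-200 family between 3.95 and 5.63, while the other epidermis and corneal epithelium miRNAs spread from −0.74 to 6.51. The differences of miR-205-5p, miR-203-3p and the miR-200 family are largely distances to the floor. That of miR-31-5p is so in part, as retina and sclera sit at the floor.

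In cornea, all 3 miRNAs and all 5 of the miR-200 family were detected on each array. miR-205-5p and the 5 of that family were also detected on each iris array, at a small share of the cornea level. Of the 10 other epidermis and corneal epithelium miRNAs tested, 4 were called higher in cornea and 4 lower. The label of a stratified epithelium group did not describe miR-31-5p, which was as bright in lens. There miR-205-5p, miR-203-3p and the whole miR-200 family were not detected. Markers of other cell types were measured in the same arrays. In cornea, the summed signal was 214.0 to 244.5 for 3 retina markers, 20.2 to 37.3 for 3 neuron markers, 685.2 to 761.4 for 2 pigment cell markers, 73.3 to 118.0 for 4 striated muscle markers, 0 to 37.5 for 4 blood cell markers, 0 to 86.5 for 2 endothelium markers and 226.8 to 260.0 for 5 mesenchyme markers. Most of the pigment cell sum in cornea was miR-204-5p, at 661.6 to 749.3, with miR-211-5p at no more than 43.3. Most of the mesenchyme sum in cornea was miR-199a-3p, at 220.4 to 249.1. miR-143-3p and miR-145a-5p, of the same list, were detected on no cornea array. These cornea sums thus rest largely on 1 miRNA each and do not describe the whole list. The retina markers summed to 14498 to 16170 in retina itself. In lens, blood cell, endothelium and mesenchyme markers were not detected. The 4 striated muscle markers summed to 686.4 to 757.4 in lens and to 152.5 to 330.3 in sclera. The scale factors were 2.41 to 3.15 for lens and 1.01 to 1.16 for sclera. Without scaling, the muscle sums of lens and sclera were about level on the 0 D and −30 D slides, and lens was higher on the normal slide. The pigment cell markers summed to 1227 to 1377 in lens and to 829.8 to 1009 in RPE/choroid, where the factors were 0.692 to 0.776. Without scaling, the lens sums were below those of RPE/choroid on each slide. The 2 markers also differed from each other. miR-204-5p was 1198 to 1349 in lens and 757.9 to 881.1 in RPE/choroid. miR-211-5p was 21.2 to 28.2 in lens and 71.9 to 127.5 in RPE/choroid. The retina markers in lens summed to 131.3 in the normal, 317.6 in the 0 D and 426.6 in the −30 D group, and the neuron markers to 119.7, 324.8 and 390.3. The tested markers were compared between cornea and the mean of the other 5 ocular tissues. Called higher and lower in cornea were 0 and 2 of 3 for retina and 0 and 3 of 3 for neurons. For pigment cells they were 0 and 1 of 2, and for striated muscle 0 and 4 of 4. For blood cells they were 0 and 2 of 2, and for endothelium 0 and 1 of 1. For mesenchyme they were 1 and 3 of 5. A lower call does not place cornea below each tissue of that mean. miR-133a-3p was 31.8 to 37.5 in cornea, 27.6 to 31.3 in iris, 5.38 to 6.37 in retina and 267 to 315 in lens. It was 29.1 to 49.3 in RPE/choroid and 58.4 to 116 in sclera. Among ocular tissues miR-9-5p was above the floor in retina alone, which fixed its lower call. Over all 306 miRNAs, 19.6% were called higher and 38.6% lower in cornea than in that mean, so that 33.7% of the calls were higher. With no scaling and with each array scaled by its own detected miRNAs, the calls move further toward lower. With quantile normalization they do not, as 34.5% of the calls were higher. The part of these cell types in the cornea and lens levels was not tested.

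Lens wear was compared within each tissue from 1 array per group, so that no test is possible. A change was called by the criteria that the methods name. Where both arrays detected the miRNA, the ratio had to exceed 2 or be under 0.5. Where 1 did, the ratio had to exceed 5 or be under 0.2. The methods do not state the value of an undetected signal, and it was set here to 0.1, far enough below every detected signal that any loss of detection met the criteria. In cornea none of the 3 miRNAs met them in any of the 3 comparisons. Between −30 D and normal cornea the log2 ratio was −0.29 ± 0.15 for miR-205-5p, −0.07 ± 0.22 for miR-203-3p and −0.37 ± 0.17 for miR-31-5p. Without scaling these ratios were −0.0047, 0.22 and −0.08, so that their size, and for miR-203-3p the direction, follows the scaling. Between 0 D and normal cornea the scaled ratio was 0.01 ± 0.15, 0.12 ± 0.22 and −0.09 ± 0.17 in the same order. Outside cornea, the log2 ratios of miR-31-5p ran from −0.20 to 0.16 across lens, iris and RPE/choroid in all 3 comparisons.

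Over all 8 tissues, the criteria marked 17.2% of the miRNAs detected in a tissue for −30 D against normal, 15.6% for 0 D against normal and 15.4% for −30 D against 0 D, in either direction. Of the 72 combinations of the 3 miRNAs, 8 tissues and 3 comparisons, 25 had detection on both arrays and 3 met the criteria. All 3 were lower values of miR-31-5p on a −30 D array. In sclera it met them against the normal and the 0 D array, through loss of detection alone; 14.6% and 6.61% of the miRNAs detected there were called lower in the same comparisons. Its brighter probe on that array lay at 2.89 errors, just under the limit of 3, and the limit on the −30 D array was above the signals of the other 2 arrays, so that no fold can be given. In LGN the −30 D signal of 11.0 was below the 0 D signal of 23.8, with a log2 ratio of −1.11 ± 0.26, and 8.61% of the miRNAs detected in LGN were called lower there. The dimmer probe of miR-31-5p did not count on the −30 D LGN array, at 2.53 errors, and with both probes summed the log2 ratio was −0.74 and did not meet the criteria.

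**Figure D5:**
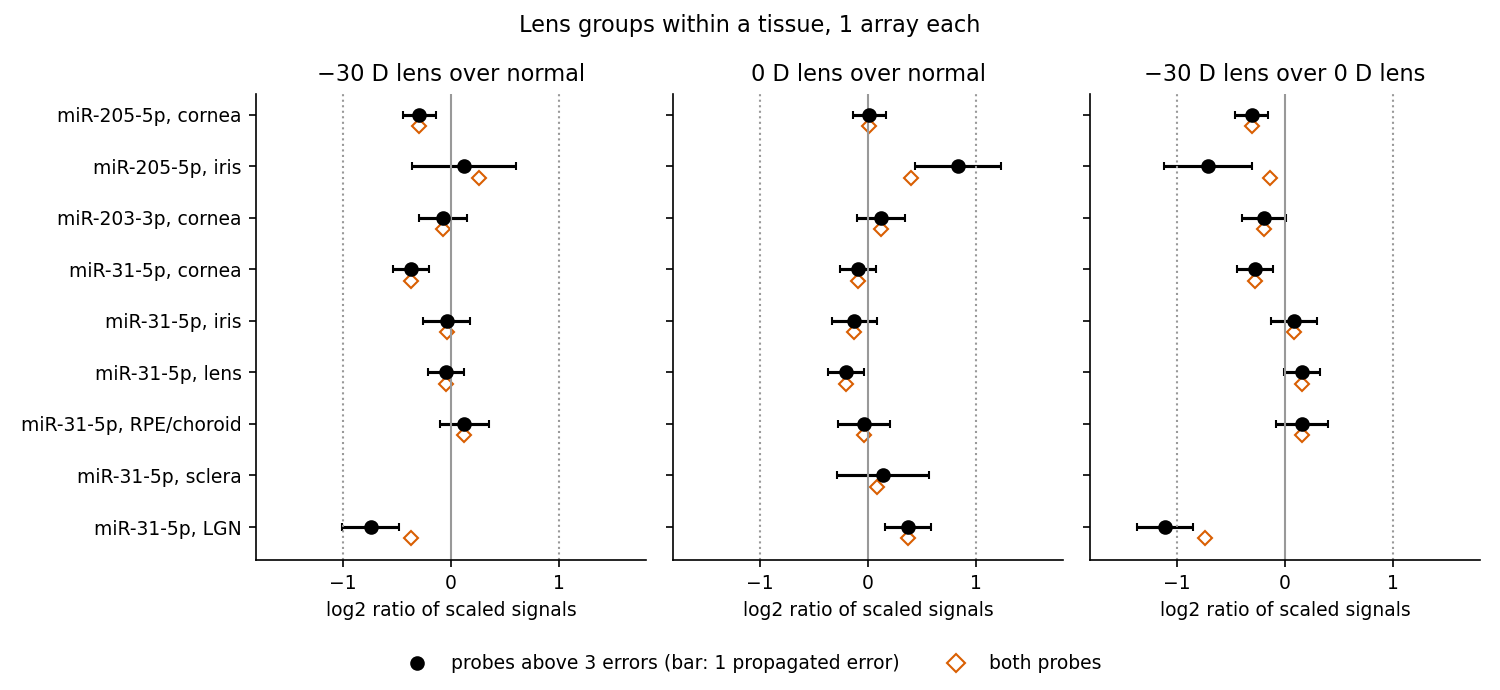
Log2 ratio of scaled signals between lens groups within a tissue for every pair of arrays that both detected the miRNA (circles, with bars of 1 propagated error), and the same ratio with both probes of the miRNA summed (diamonds); dotted lines mark ratios of 2 and 0.5. Of the 25 ratios, 1 lies past a dotted line, miR-31-5p in LGN at −1.11, and its diamond does not.

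A difference between lens groups common to the 6 ocular tissues was tested for miR-31-5p with limma on 18 arrays with tissue as a block. The other 2 miRNAs were at the floor on 15 of these arrays, and their fitted values are not given. miR-31-5p differed by −0.06 log2 units between −30 D and normal (95% interval −0.18 to 0.07, adjusted p = 0.68), by −0.08 between 0 D and normal (−0.20 to 0.05, adjusted p = 0.63) and by 0.02 between −30 D and 0 D (−0.11 to 0.15, adjusted p = 0.88). Of the 269 miRNAs tested, limma called 0 (0%) in the first comparison, 0 (0%) in the second and 2 (0.743%) in the third, and 27, 32 and 46 had an unadjusted p under 0.05. Of the 18 values of miR-31-5p, 6 were at the floor.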

How the data were processed

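The 24 one-color arrays hold total RNA of 8 mouse tissues in 3 lens groups, with 1 array for each tissue and lens group. Per the labels and file headers, the authors labeled 100 ng with cyanine 3 and made the intensity values with Feature Extraction 10.7.1.1, which subtracts background and gives each probe a total signal with an error. The deposited table of 24 further columns was not used, since its group letters have more than 1 reading.

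Probe signals above 3 errors were summed for each miRNA. Each array was multiplied by a factor that brings the 75th percentile of 79 miRNAs, those that every array detected, to a common value. Values below 9.93, the highest of the arrays' lowest detected signals, were raised to it before log2. limma 3.58.1 in R 4.3.3 was fitted with tissue and lens group on 24 arrays for tissues and on the 18 ocular arrays for lens groups, with Benjamini-Hochberg adjustment at 0.05 over the miRNAs detected on at least 3 arrays and not constant after the floor. The 3 arrays of a tissue are the 3 lens groups. The p-values measure the spread left after the tissue and lens group terms, which all tissues of a fit share, floored arrays included. The number of arrays limits precision. Within a tissue, errors of ratios were propagated from the probe errors. The fits were tested on simulated data. Named miRNAs were the members, their other arms, the lists of the text, and for each member the 3 most correlated miRNAs. The members and lists were chosen with earlier results of these data known. Sequences were matched by name for 13 of 13 miRNAs looked up. Python 3.11.15, numpy 2.4.6, pandas 2.3.3 and matplotlib 3.10.9 were used. The alternatives are in the closing section.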

Additional observations from a re-analysis of the deposited data

How the results depend on the processing

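Log2 differences between cornea and the other 5 ocular tissues were 4.99 to 12.2 for miR-205-5p, 1.74 to 9.37 for miR-203-3p and 2.24 to 4.97 for miR-31-5p; the stricter filter on detection leaves out the first and second, whose direction is fixed where the other tissues sit at the floor. Against iris, RPE/choroid and LGN, where miR-31-5p was detected, its 47 differences over the alternatives kept their direction and call. Against lens it was 0.12 with no scaling, and it missed the threshold with each array scaled by its own detected miRNAs (an alternative added after seeing the data; adjusted p = 0.12), with undetected signals at 0.1 (1.0) or at the array's lowest signal (0.15), and without the normal group (0.15); the cause was not tested. The miRNAs called in cornea against the other ocular tissues were 178, and 317 after normexp, where more miRNAs entered the test. Scaling to the 75th percentile over all miRNAs was not run, as that percentile lies at background and below 0 on 1 array.

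The lens group differences of miR-31-5p over 6 tissues changed sign with the setting. With undetected signals at 0.1, that between −30 D and normal went from −0.06 to −1.11. Between 0 D and normal it turned to 0.020 with no scaling and 0.030 with quantile normalization. Between −30 D and 0 D it turned to −0.19 with no scaling, −0.17 with quantile normalization, −0.16 with each array's own detected miRNAs, −1.06 with undetected signals at 0.1, −0.064 at the array's lowest signal, −0.037 with the printed gene signal, −0.026 with the brightest probe and −0.12 with all 24 arrays. Leaving out 1 tissue in turn gave −0.092 (without RPE/choroid) to 0.0071 (without cornea) for −30 D against normal and −0.0077 (without RPE/choroid; −0.0074 without lens) to 0.080 (without cornea) for −30 D against 0 D. None of these passed the threshold. The 2 calls over all miRNAs between −30 D and 0 D became 0 with each array's own detected miRNAs, quantile normalization, both other floors and the printed gene signal, 1 with all 24 arrays, 6 with normexp and 13 with the brightest probe, and 0 to 3 when 1 tissue was left out. The 0 calls of −30 D against normal became 7 with normexp, and those of 0 D against normal became 7 with the brightest probe and 2 with all 24 arrays.

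The 3 calls of the members within tissues became 5 with no scaling, each array's own detected miRNAs or the printed gene signal, and 1 with undetected signals at the array's lowest, where both sclera calls were lost and the calls of all miRNAs in ocular tissues for −30 D against normal went from 233 to 89. With no scaling and with quantile normalization the added calls were miR-205-5p in iris, higher with the 0 D lens than in the normal and −30 D groups, and with the printed gene signal they ran the opposite way. The LGN call was lost with quantile normalization, with a ratio of 3 and with both probes summed, an alternative added after seeing the data.

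No paired analysis was possible by replicate number because each group holds 1 array. Tissue and lens group, which is also the slide, are instead terms of the fits.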
